A study of Mus musculus with 9 samples.

Results

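The clustered protocadherins are cell-surface adhesion proteins of the cadherin superfamily whose genes lie side by side in 3 arrays, the alpha, beta and gamma clusters. They were taken as every row whose symbol begins with Pcdha, Pcdhb or Pcdhg and goes on with a member number or subtype letter, which gave 58 of the 55450 genes listed: 14 alpha, 22 beta and 22 gamma genes. The members were chosen by symbol and no threshold on a level was used. The family was, however, selected on earlier results of these libraries, among them the FPKM of Pcdhga2 in bleomycin and vehicle. The tests of bleomycin against vehicle below are therefore not independent support for that gene. The same holds for tests that set other libraries against these bleomycin libraries. The study asked how lowering O-GlcNAcylation, the attachment of N-acetylglucosamine to proteins, bears on senescence of mouse primary articular chondrocytes, the cartilage cells of the joint surface. All cells, controls included, were kept at 3% oxygen and exposed for 4 h to hyaluronidase (4 U/mL) before anything else was added. The vehicle group (3 libraries) then had PBS for 24 h and DMSO for 5 days. The bleomycin group (3 libraries) had bleomycin, an antibiotic that breaks DNA strands, at 50 μg/mL for 24 h and DMSO for 5 days. The third group (3 libraries) had the same bleomycin and then ST045849, an inhibitor of the enzyme that attaches N-acetylglucosamine, at 20 μM for 5 days. Every ST045849 library had bleomycin, so the compound alone was not measured, and the labels give no strain, age or sex of the mice. They also do not say whether libraries 1 to 3 of a group came from separate mice or cultures, and the p-values measure the spread between these libraries.

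Each protocadherin protein carries extracellular cadherin repeats that bind the same isoform on a neighbouring cell. In neurons, individual cells switch on a few members each through their own promoters, with the insulator protein CTCF and cohesin looping a chosen promoter to a distant enhancer, and the mixture gives a cell its surface identity. The last genes of the alpha and gamma arrays, called C-type, are regulated more uniformly, and Pcdhgc3 among them is expressed widely outside the brain. In the alpha and gamma clusters a long first exon, one per gene, is spliced to 3 constant exons used by all genes of the cluster, whereas each beta gene is a single coding exon of its own.

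This gene structure bears on what the values can say. In the GENCODE vM21 annotation of GRCm38, all 58 genes lie on the plus strand of chromosome 18: the alpha cluster at positions 36930184 to 37187661, the beta cluster at 37264938 to 37524479 and the gamma cluster at 37661793 to 37841873. The constant exons shared by all alpha genes hold 2860 bases and those shared by all gamma genes 2116 bases. Exon bases shared with other members made up 38.0% to 54.9% of an alpha gene's exons and 27.8% to 66.8% of a gamma gene's, against 0 to 9.67% for beta genes, of which only Pcdhb21 and Pcdhb22 overlap. A read inside a constant exon cannot be placed on 1 gene by sequence, and how such reads were counted is not given in the sources used here, so the split of alpha and gamma signal among single genes is uncertain throughout. Outside the constant exons, 2 pairs of gamma neighbours also overlap, Pcdhgb1 with Pcdhga4 by 1038 bases and Pcdhgb4 with Pcdhga8 by 108 bases. Genes outside the family overlap members too. On the same strand they covered 9.33% to 20.1% of a gamma gene's exon bases and 41.8% of those of Pcdha4. On the opposite strand they covered up to 63.5% (Pcdhb12), and 55.2% of Pcdhga10. Each row has its own gene identifier, but 2 of them carry the symbol Pcdha11, and the one with the identifier ENSMUSG00000007440 lies where RefSeq places Pcdha10.

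The values are FPKM, sequenced fragments scaled to transcript length and to library depth, so levels can be compared between genes per unit length. The spacing of low values gave an approximate depth of 31300000 to 35900000 fragments per library. At that depth the alpha cluster rested on the equivalent of 34.4 to 126 fragments per library, the beta cluster on 790 to 1820 and the gamma cluster on 7520 to 14800. The chondrocyte label fitted its markers: all 12 chondrocyte genes passed the filter, and their summed FPKM was 24500 to 34800 in vehicle, 18600 to 26800 in bleomycin and 15400 to 22200 with ST045849. Libraries also differed in how FPKM related to gene length across all tested genes, with log2 slopes per doubling of length, relative to the mean of the 9, of -0.0719 in vehicle library 1, -0.212 and -0.139 in ST045849 libraries 2 and 3, and 0.0186 to 0.101 in the other 6. ST045849 library 1 stood apart from the other 2 libraries of its group, and results that rest on it are given with and without it.

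The 3 arrays differed in level by orders of magnitude. Summed over its 14 genes, the alpha cluster had 0.179, 0.215 and 0.271 FPKM in the 3 vehicle libraries, 0.48, 0.583 and 0.7 in bleomycin, and 0.389, 0.281 and 0.504 with ST045849. The beta cluster summed to 5.6, 7.82 and 9.30 FPKM in vehicle, 9.71 to 12.5 in bleomycin, and 10.1, 4.76 and 8.84 with ST045849. The gamma cluster summed to 39.9, 41.3 and 41.6 FPKM in vehicle, 79.0, 69.5 and 59.3 in bleomycin, and 71.9, 54.8 and 46.0 with ST045849. In each cluster all 3 bleomycin sums lay above all 3 vehicle sums, and the ST045849 sums overlapped the bleomycin sums in all 3 clusters. The bleomycin mean was 2.65 times the vehicle mean for alpha, 1.46 times for beta and 1.69 times for gamma, and the ST045849 mean was 0.666, 0.712 and 0.831 times the bleomycin mean. In these bulk samples, more RNA per cell and more cells of a kind that uses these genes cannot be told apart.

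**Figure D1:**
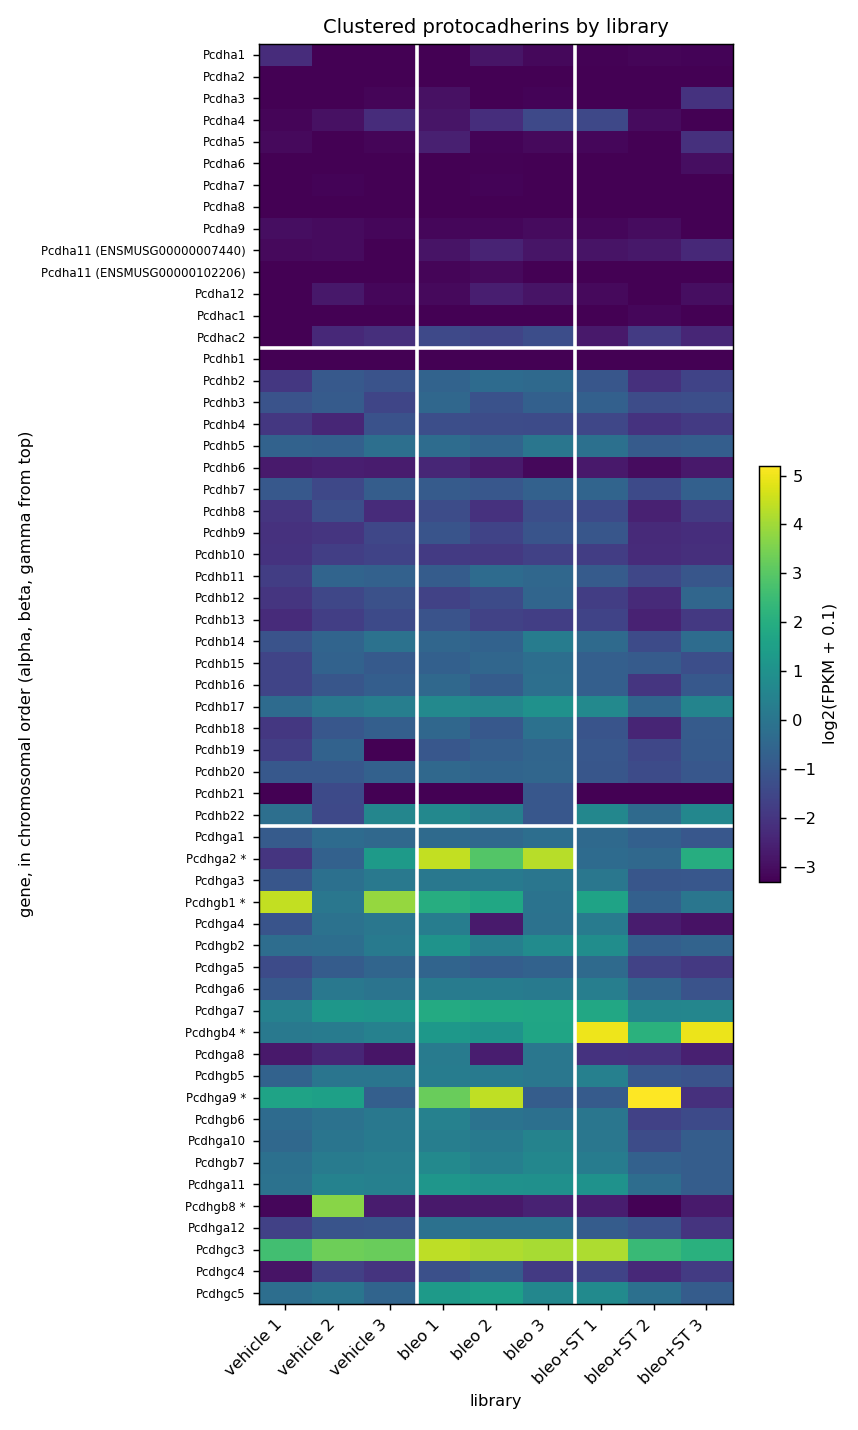
Colour gives log2(FPKM + 0.1) of the 58 clustered protocadherins (rows, in chromosomal order, white lines between clusters) in 9 libraries (columns; bleo, bleomycin; bleo+ST, bleomycin then ST045849); asterisks mark the 5 gamma genes annotated to end 3 bases before the other 17. The alpha rows stay near 0 FPKM, the beta rows are low, and single asterisked gamma genes are bright in a few libraries each.

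A gene was tested where 3 or more of the 9 libraries reached 1 FPKM. That left 15 members: 13 gamma genes, the beta genes Pcdhb17 and Pcdhb22, and no alpha gene. A further criterion of 0.1 FPKM in 3 libraries, used below for counts without a test, was met by 42 members (2 alpha, 19 beta and 21 gamma). Pcdha2, Pcdha8 and Pcdhb1 were listed at 0 in all 9 libraries, and 14 other members at 0 in at least 1 library.

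Within the alpha cluster the C-type gene Pcdhac2 had the highest mean, 0.149 FPKM over the 9 libraries, and it was the highest alpha gene in 6 of them. It had 0, 0.0978 and 0.121 FPKM in vehicle, 0.270, 0.239 and 0.306 in bleomycin, and 0.0491, 0.174 and 0.0877 with ST045849. All 3 bleomycin libraries were above every other library, but the most fragments behind any of these values was about 56.7, the gene was under the filter, and no test was made. The other C-type alpha gene, Pcdhac1, was listed at 0 in 8 libraries and at 0.0118 in ST045849 library 2. The highest value of any other alpha gene was 0.266 FPKM, of Pcdha4 in bleomycin library 3.

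Beta genes were expressed at low and unequal levels: means over the 9 libraries ran from 0 for Pcdhb1, 0.0501 FPKM for Pcdhb6 and 0.0747 for Pcdhb21 to 1.23 for Pcdhb17, with a median of 0.401 FPKM. Pcdhb17 or Pcdhb22 was the highest beta gene in every library, holding 12.4% to 16.3% of the cluster's sum. Pcdhb17 had 0.691, 0.967 and 1.16 FPKM in vehicle, 1.5, 1.41 and 1.88 in bleomycin, and 1.5, 0.576 and 1.35 with ST045849. The bleomycin libraries were all above the vehicle libraries, and the ST045849 group spanned both. The difference of bleomycin from vehicle in log2(FPKM + 1), a scale that understates the change of low genes, was 0.42 ± 0.20 (SE; limma, adjusted p = 0.316).

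Pcdhb22 is the last beta gene and overlaps its neighbour Pcdhb21 by 455 exon bases. It had 0.757, 0.270 and 1.42 FPKM in vehicle, 1.47, 1.14 and 0.396 in bleomycin, and 1.46, 0.665 and 1.44 with ST045849. The groups overlapped fully, and its difference between bleomycin and vehicle was 0.15 ± 0.28 in log2(FPKM + 1) (limma, adjusted p = 0.865). The low libraries of Pcdhb22, vehicle library 2 and bleomycin library 3, were the only libraries in which Pcdhb21 was not listed at 0, with 0.273 and 0.400 FPKM against 0.270 and 0.396 for Pcdhb22. Pcdhb19, which shares no exon bases with another member, was listed at 0 in vehicle library 3 and at 0.199 to 0.585 FPKM in the other 8.

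The gamma cluster had the highest levels and the most uneven ones. In all 9 libraries its highest gene was 1 of 5 members, Pcdhga2, Pcdhgb1, Pcdhgb4, Pcdhga9 and Pcdhgb8, and in all 9 the second highest was Pcdhgc3. These 5 genes share an annotated feature that the other 17 gamma genes lack: in GENCODE vM21 they end at position 37841870, 3 bases before the end of the other 17 at 37841873. They do not neighbour each other, standing at places 2, 4, 10, 13 and 18 of the 22, and they include both A-type and B-type genes. Which of the 5 led changed from library to library, within groups as well as between them. Whether the 3-base difference in the annotation has a part in this was not tested.

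In vehicle, Pcdhgb1 led libraries 1 and 3 and Pcdhgb8 led library 2. Pcdhgb1 had 21.2, 0.936 and 14.4 FPKM in vehicle, 3.90, 3.28 and 0.849 in bleomycin, and 3.00, 0.510 and 0.916 with ST045849. Its vehicle libraries 1 and 3 were far above the other 7, but vehicle library 2 was as low as the treated ones. The log2(FPKM + 1) difference was -1.36 ± 0.77 for bleomycin against vehicle (limma, adjusted p = 0.420) and -1.95 ± 0.77 for bleomycin plus ST045849 against vehicle (adjusted p = 0.119). Whether they passed the test turned on vehicle library 2. Without it, the differences were -2.45 (adjusted p = 0.0385) and -3.03 (adjusted p = 0.0164). Pcdhgb8 had 12.9 FPKM in vehicle library 2 and 0.00302 to 0.0762 in the other 8, the reverse of Pcdhgb1 within the vehicle group. GENCODE vM21 lists Pcdhgb8 as a polymorphic pseudogene and not as protein coding.

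Pcdhga2 was the 1 clustered protocadherin called higher in bleomycin than in vehicle in the fit of all 9 libraries. It had 0.149, 0.533 and 2.39 FPKM in vehicle (1.02 ± 1.20, SD, n = 3), 21.3, 7.45 and 19.3 in bleomycin (16.0 ± 7.47), and 0.698, 0.642 and 3.90 with ST045849 (1.75 ± 1.87). Every bleomycin library was above every vehicle and every ST045849 library, while the vehicle and ST045849 groups overlapped. The difference of bleomycin from vehicle was 3.11 ± 0.52 in log2(FPKM + 1) (limma, adjusted p = 0.00787, n = 3 per group). With no filter on low values the adjusted p was 0.0520, and over the 24 other settings it ran from 0.00303 to 0.0520. When only the vehicle and bleomycin libraries were fitted, 4 of 15 members were called higher, Pcdhga2, Pcdhgb4, Pcdhgc3 and Pcdhgc5. In that fit 873 of all 12441 genes were called higher, and 8.23% were called in either direction. Pcdhga2 and Pcdhgc5 are among 6 of the 15 that met the filter only through the bleomycin libraries. That favours a rise, so the shares of members and of all genes cannot be compared directly.

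Pcdhga9 showed how far the single genes moved within a group. It had 3.00, 2.77 and 0.503 FPKM in vehicle, 9.53, 20.8 and 0.471 in bleomycin, and 0.451, 36.8 and 0.129 with ST045849. Its highest and lowest libraries were both ST045849 libraries, 285 times apart, and the groups overlapped completely. The difference of bleomycin from vehicle was 1.30 ± 1.25 (limma, adjusted p = 0.690). In bleomycin library 2 and ST045849 library 2, where Pcdhga9 led the cluster, Pcdhga2 and Pcdhgb4 were at the lowest level of their own high groups, 7.45 and 4.31 FPKM.

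Pcdhgb4 was the 1 member called higher in bleomycin plus ST045849 than in vehicle in the fit of all 9 libraries. It had 0.998, 1.06 and 1.25 FPKM in vehicle (1.10 ± 0.131, SD, n = 3), 2.26, 1.96 and 3.16 in bleomycin (2.46 ± 0.624), and 31.8, 4.31 and 30.7 with ST045849 (22.3 ± 15.6). The 3 groups did not overlap, in the order vehicle, bleomycin, ST045849, although ST045849 library 2 was much nearer to the bleomycin libraries than to the other ST045849 libraries. The difference of the ST045849 group from vehicle was 3.07 ± 0.55 in log2(FPKM + 1) (limma, adjusted p = 0.00830), and the difference of bleomycin from vehicle was 0.70 ± 0.55 (adjusted p = 0.604). With no filter the first adjusted p was 0.0545. The second passed in 4 of 24 other settings, among them the fit of these 2 groups alone (0.70 ± 0.17, adjusted p = 0.0395) and the fit without ST045849 library 2 (adjusted p = 0.0431).

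**Figure D2:**
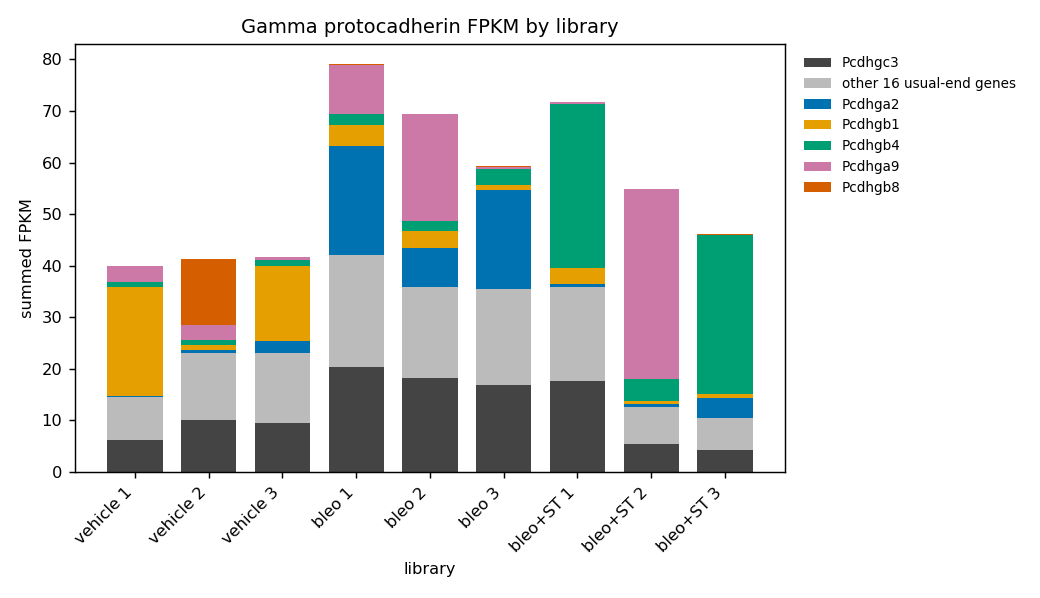
Bars give the summed FPKM of the 22 gamma genes in each library, stacked as Pcdhgc3, the other 16 genes with the usual annotated end, and the 5 genes annotated to end 3 bases earlier. The coloured block that dominates differs from library to library, whereas Pcdhgc3 is the highest usual-end gene in all 9.

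The 5 early-ending genes summed to 25.4, 18.1 and 18.6 FPKM in vehicle, 37.0, 33.5 and 23.9 in bleomycin, and 36.1, 42.2 and 35.7 with ST045849. The vehicle and bleomycin groups overlapped by vehicle library 1, and the ST045849 sums were all above the vehicle sums. Single genes of the 5 differed between the libraries of a group by a median of 16.0 times in vehicle, 2.85 times in bleomycin and 7.39 times with ST045849, and Pcdhgb8 by 1060 times in vehicle. Their sum differed by 1.4, 1.55 and 1.18 times, less than any one of the 5 within bleomycin and within ST045849, whereas in vehicle Pcdhgb4 (1.25 times) varied less than the sum. For the 17 usual-end genes the same medians were 1.66, 1.21 and 3.28. The 5 genes held 40.3% to 63.6% of the gamma sum in the 6 libraries without ST045849 and 50.1%, 77.1% and 77.5% with it.

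The 17 usual-end gamma genes summed to 14.5, 23.1 and 23.1 FPKM in vehicle (20.2 ± 4.94, SD, n = 3), 42.0, 36.0 and 35.4 in bleomycin (37.8 ± 3.64), and 35.8, 12.5 and 10.4 with ST045849 (19.6 ± 14.1). All 3 bleomycin libraries were above all 3 vehicle libraries, and ST045849 library 1 was at the bleomycin level while libraries 2 and 3 were the lowest of the 9. The sum with ST045849 was 0.518 times that in bleomycin, 0.303 times without library 1, and 0.948 times with library 1 as its lone sample. All 17 genes were lower in ST045849 libraries 2 and 3 than in library 1, and 14 of the 17 were lower there than in every bleomycin library. The share of all genes with these orders was not counted. The 17 genes share exons and are not separate observations, and the length slopes were -0.212 and -0.139 in libraries 2 and 3 against 0.0186 in library 1.

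Pcdhgc3, the C-type gene with the highest mean of all 58 members (12.0 FPKM), set the pattern of this group. It had 6.11, 10.0 and 9.52 FPKM in vehicle (8.55 ± 2.12, SD, n = 3), 20.3, 18.3 and 16.8 in bleomycin (18.5 ± 1.75), and 17.7, 5.38 and 4.17 with ST045849 (9.09 ± 7.51). Bleomycin was above vehicle without overlap, and ST045849 library 1 lay among the bleomycin libraries while libraries 2 and 3 lay under the vehicle libraries. The difference of bleomycin from vehicle was 1.05 ± 0.40 in log2(FPKM + 1), which did not pass the test (limma, adjusted p = 0.190). It passed where ST045849 library 1 was left out (adjusted p = 0.0177) and where only the vehicle and bleomycin libraries were fitted (adjusted p = 0.0182).

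Pcdhgc5, the last gene of the array, had 0.756, 0.891 and 0.571 FPKM in vehicle, 2.43, 2.68 and 1.46 in bleomycin, and 1.61, 0.782 and 0.462 with ST045849. The bleomycin and vehicle libraries did not overlap, and ST045849 library 1 again fell within the bleomycin range. The difference of bleomycin from vehicle was 0.86 ± 0.24 (limma, adjusted p = 0.0652), and it passed in the fit without ST045849 library 1 (adjusted p = 0.0259). However, Pcdhgc5 met the filter only through the bleomycin libraries, which favours such a separation and such a call. Pcdhgc4, between these 2 genes, stayed low at 0.0361 to 0.440 FPKM.

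The A-type gene Pcdhga7 was the second highest usual-end gene, with 1.25, 2.18 and 2.08 FPKM in vehicle, 3.59, 3.26 and 3.24 in bleomycin, and 3.36, 1.39 and 1.41 with ST045849. Bleomycin was again above vehicle without overlap, and ST045849 library 1 lay within the bleomycin range. The difference of bleomycin from vehicle was 0.64 ± 0.25 (limma, adjusted p = 0.197). The other tested usual-end genes, Pcdhga6, Pcdhga10, Pcdhga11, Pcdhgb2, Pcdhgb5 and Pcdhgb7, had 0.296 to 2.14 FPKM over all libraries, and their differences of bleomycin from vehicle ran from 0.20 (Pcdhgb5) to 0.50 (Pcdhga11), none past the test. Of these 6, only Pcdhga10 had overlapping bleomycin and vehicle libraries. However, Pcdhga6, Pcdhga10, Pcdhgb2 and Pcdhgb5 met the filter only through the bleomycin libraries, which favours such a separation. Among all genes at 0.1 FPKM in 3 libraries, 21.9% had every bleomycin library above every vehicle library.

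**Figure D3:**
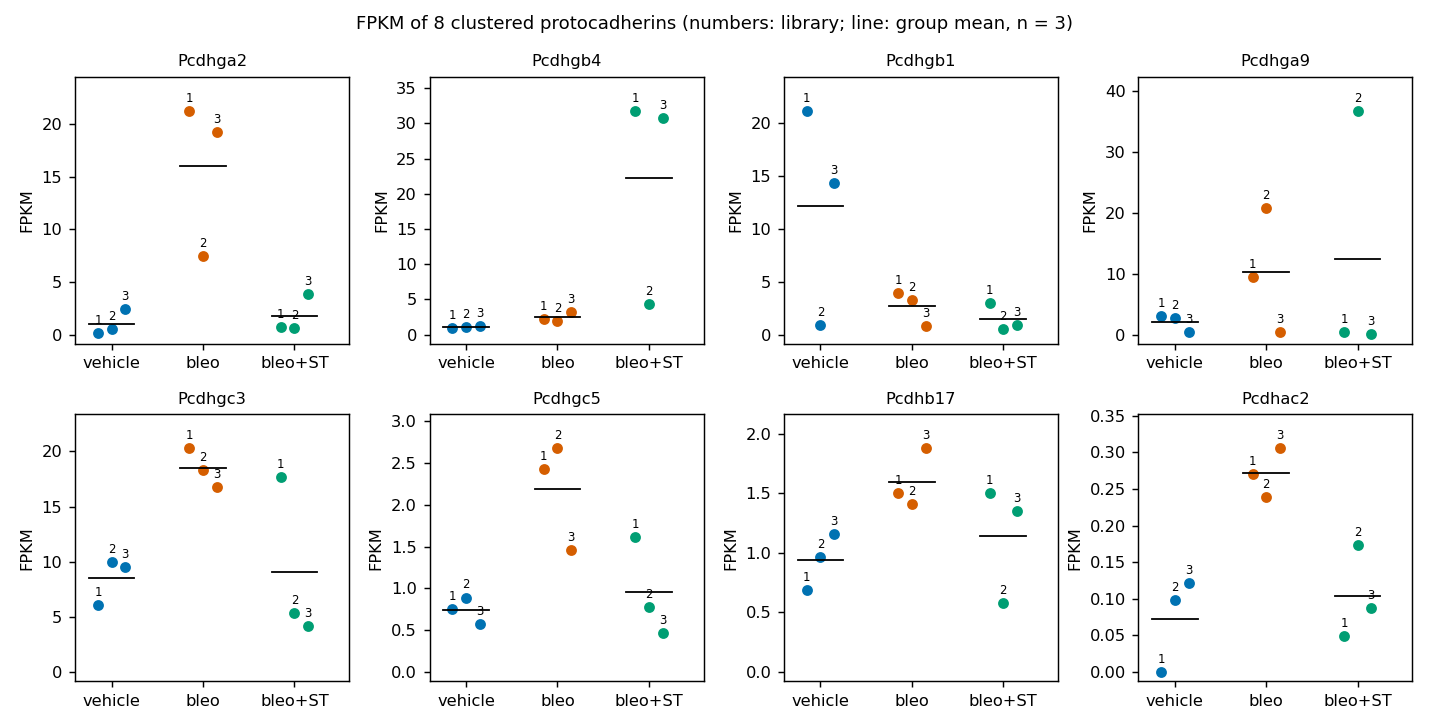
Points give the FPKM of 8 members in each library (numbered by library), and lines the group means. Bleomycin libraries lie above vehicle libraries in Pcdhga2, Pcdhgb4, Pcdhgc3, Pcdhgc5, Pcdhb17 and Pcdhac2, and ST045849 library 1 lies far from libraries 2 and 3 in Pcdhgc3.

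Across the 9 libraries, the level of Pcdhgc3 had a median Pearson r of 0.89 with the other 16 usual-end gamma genes (range 0.563 to 0.997), of 0.679 with the 19 beta genes that met 0.1 FPKM in 3 libraries, and of 0.037 with the 4 early-ending genes that met it. These are descriptions over 9 libraries that share depth, treatment and, for gamma genes, exons. Not every usual-end gene followed the pattern. Pcdhga4, which overlaps Pcdhgb1, had 0.0337 to 0.0581 FPKM in bleomycin library 2 and ST045849 libraries 2 and 3 and 0.366 to 1.13 in the other 6. Pcdhga8, which overlaps Pcdhgb4, had 1.06 and 0.934 FPKM in bleomycin libraries 1 and 3, where Pcdhga2 led the cluster, and 0.0408 to 0.138 in the other 7. Pcdhga4 thus differed by 21.1 times between bleomycin libraries and by 31.4 times between ST045849 libraries.

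Set against all tested genes, bleomycin against vehicle called 1 of 15 members, Pcdhga2, higher and none lower, where 4.2% of all 12441 tested genes were called higher, 0.675% lower and 4.88% in either direction. Of all calls, 86.2% were higher, against 67.6% with FPKM rescaled by median-of-ratios factors. Of the 15, 6 (Pcdhga2, Pcdhgb2, Pcdhga6, Pcdhgb5, Pcdhga10 and Pcdhgc5) met the filter only through the bleomycin libraries, so no median over the 15 is given. Over all 58 members the median difference was 0.13, which came to -0.01 when the length trend of each library was removed. With no filter, it was 0.15 over the 55 members and 0.01 over the 30298 genes above 0 in at least 1 library. Without a test, 16 of the 58 members, and 15 of the 42 at 0.1 FPKM, had all bleomycin libraries above all vehicle libraries and none the reverse, against 21.9% and 6.17% of the 17817 genes that met the same criterion. By cluster, these were 2 alpha, 3 beta (Pcdhb2, Pcdhb17 and Pcdhb20) and 11 gamma genes. The 11 gamma genes stood along the whole array, from place 2 (Pcdhga2) to place 22 (Pcdhgc5).

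Bleomycin plus ST045849 against bleomycin called 0 of 15 members, as it called 0% of all tested genes in limma with 9 libraries. At an unadjusted p under 0.05 there were 8 of 15 members and 2804 of the 12441 genes. Of the 15, 6 met the filter only through the bleomycin libraries, with Pcdhga2, Pcdhga10 and Pcdhgc5 of these 8 among them. Bleomycin is the reference in this comparison, so for those genes the filter favours a fall in every fit below. The median difference was -0.15 over all 58 members, and with no filter -0.16 over 55 members and 0 over 30298 genes. The libraries of these 2 groups with the same number deviated together, and with that number as a block in a fit of the 2 groups, 4 members passed, where 19.3% of all genes did: Pcdhgb4 was higher by 2.37 (adjusted p = 0.00991), and Pcdhga2 (-2.71, adjusted p = 0.00372), Pcdhgc3 (-1.19, adjusted p = 0.0219) and Pcdhgc5 (-0.73, adjusted p = 0.0246) were lower. With the length trend also removed, the first 2 of these passed, at adjusted p = 0.0378 and 0.0308, where 1.37% of all genes did.

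The comparison turned on ST045849 library 1. Without it, limma called 9 of 14 members, 1 higher (Pcdhgb4) and 8 lower (Pcdhga2, Pcdhgb2, Pcdhga7, Pcdhga10, Pcdhgb7, Pcdhga11, Pcdhgc3 and Pcdhgc5), where 18% of all genes were called, and 7.16% called lower. Of the 8, Pcdhga2, Pcdhgb2, Pcdhga10 and Pcdhgc5 met the filter only through the bleomycin libraries. These are the reference here, so the filter favours a fall and the 2 shares cannot be compared directly. With ST045849 library 1 as the lone sample of its group, Pcdhgb4 differed from bleomycin by 3.26 in log2(FPKM + 1). Without overlap between the full groups, 1 member (Pcdhgb4) was higher and 10 were lower, all of them among the 42 at 0.1 FPKM, against 13.8% and 8.93% of genes at that level. The 10 were 1 alpha gene (Pcdhac2), 5 beta genes (Pcdhb2, Pcdhb4, Pcdhb11, Pcdhb15 and Pcdhb20) and 4 gamma genes (Pcdhga2, Pcdhga10, Pcdhgb7 and Pcdhga12).

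Bleomycin plus ST045849 against vehicle called 1 of 15 members, Pcdhgb4, higher, where 8.11% of all tested genes were called higher, 1.74% lower and 9.85% in either direction. Of all calls, 82.4% were higher, against 54.2% with median-of-ratios factors. The median difference was -0.01 over all 58 members, and with no filter -0.01 over 55 members and 0.02 over 30298 genes. Without overlap, Pcdhgb4 and the Pcdha11 row ENSMUSG00000007440 were higher and Pcdhb6 and Pcdhb20 lower. Of these, Pcdhgb4 and Pcdhb20 were among the 42 members at 0.1 FPKM, 1 in each direction, against 20.9% higher and 6.8% lower of the genes at 0.1 FPKM. Pcdhgc3 differed by -0.14 ± 0.40 and Pcdhgc5 by 0.13 ± 0.24. These differences average unlike libraries: Pcdhgc3 had 17.7 FPKM in ST045849 library 1 and 5.38 and 4.17 in libraries 2 and 3. The usual-end gamma sum with ST045849 was 0.967 times that in vehicle, 0.566 times without library 1, and 1.77 times with library 1 as its lone sample. Without library 1, limma called 3054 of 12357 genes and 1 of 14 members, again Pcdhgb4. The comparisons share libraries, so their values for a gene stand side by side and are not independent.

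**Figure D4:**
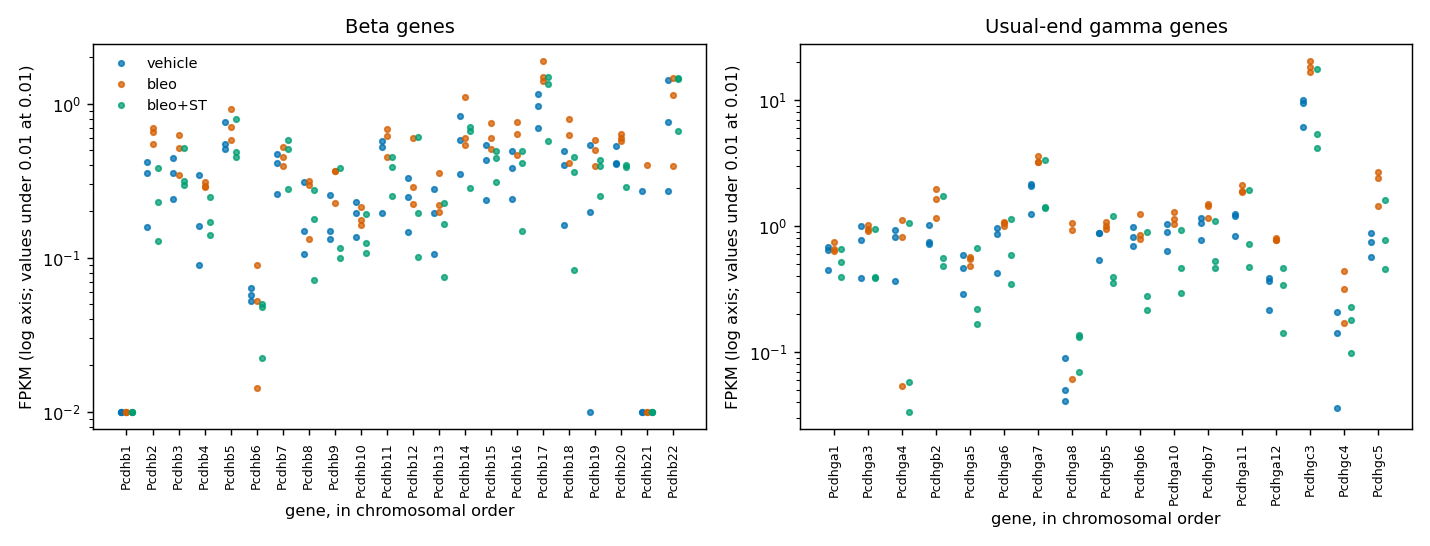
Points give the FPKM (log axis, values under 0.01 drawn at 0.01) of each beta gene and each usual-end gamma gene in chromosomal order, coloured by group. All bleomycin points lie above all vehicle points in 3 of 22 beta genes and 9 of 17 usual-end gamma genes, against 21.9% of all genes at 0.1 FPKM in 3 libraries. The 2 groups overlap or are at 0 in the other genes shown, and ST045849 points spread widely, with Pcdhgc3 the highest gene at up to 20.3 FPKM.

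The length slopes of the libraries stood beside the usual-end gamma sums as follows. The 3 libraries with slopes below 0, vehicle library 1 and ST045849 libraries 2 and 3, had the 3 lowest usual-end gamma sums, 14.5, 12.5 and 10.4 FPKM. In the beta cluster, the lowest 2 sums were those of ST045849 library 2 (4.76 FPKM) and vehicle library 1 (5.6), but ST045849 library 3 (8.84), with a slope of -0.139, was above vehicle library 2 (7.82), which had the highest slope, 0.101. The gamma genes have 4615 to 7627 exon bases and the beta genes 2588 to 8695. When the length trend was removed, limma again called 1 of 15 members in bleomycin against vehicle and 0 in the comparison of the treated groups. What part the length slopes have in the levels of single libraries was not tested beyond that.

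**Figure D5:**
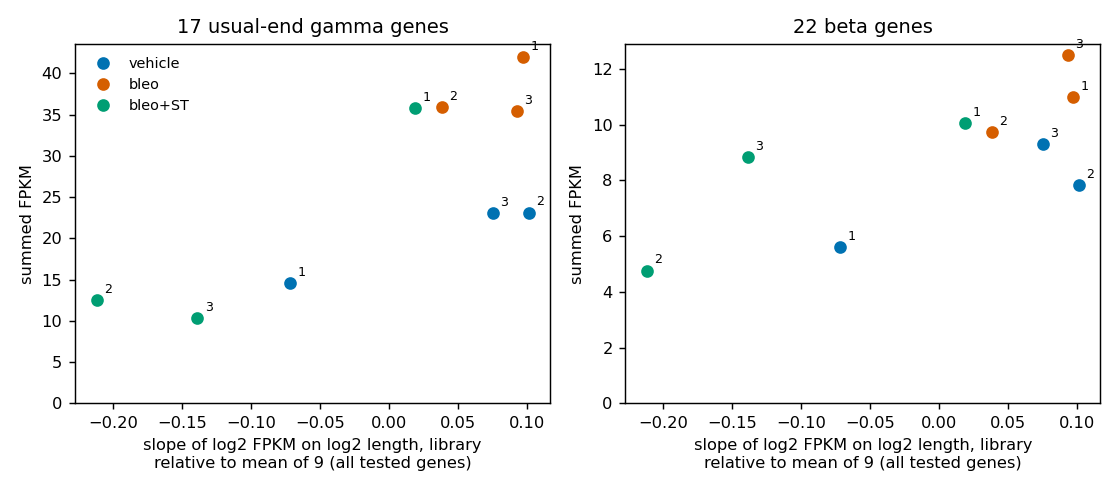
Each point is a library: its slope of log2 FPKM on log2 gene length relative to the mean of the 9 (x, over all tested genes) against its summed FPKM (y) for the 17 usual-end gamma genes and the 22 beta genes. ST045849 libraries 2 and 3 and vehicle library 1 lie at slopes below 0 and have the lowest gamma sums, whereas at slopes above 0 the bleomycin libraries lie above the vehicle libraries.

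Genes that act with or on the clusters were read from lists chosen with earlier results known. Among the non-clustered protocadherins, which lie outside the 3 arrays, 4 of 12 were tested and 2 were called higher in bleomycin than vehicle. Pcdh1, an epithelial adhesion protein, had 0.419, 0.393 and 0.438 FPKM in vehicle, 1.71, 1.88 and 1.57 in bleomycin, and 1.43, 1.63 and 1.39 with ST045849. Both treated groups were above vehicle without overlap, by 0.94 ± 0.14 (limma, adjusted p = 0.00521) and 0.81 ± 0.14 (adjusted p = 0.00771). Pcdh18 also rose in bleomycin, by 0.93 ± 0.21 (adjusted p = 0.0348).

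Of 10 tested classical and other cadherins, 2 rose in bleomycin and 8 did not pass: Cdh13, the cadherin anchored to the membrane by a lipid, by 1.28 ± 0.16 (adjusted p = 0.0027), and Fat4, a giant cadherin of planar polarity, by 1.40 ± 0.35 (adjusted p = 0.0464). With ST045849 against vehicle only Cdh13 passed (0.66, adjusted p = 0.0296). No catenin passed in any comparison (4 tested), and Ctnnb1 had 223 to 289 FPKM in vehicle and 193 to 216 in bleomycin.

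Among CTCF, cohesin and their loaders, 12 genes were tested and none passed in bleomycin against vehicle. Ctcf had 8.57, 9.26 and 13.1 FPKM in vehicle, 11.9, 9.95 and 12.8 in bleomycin, and 11, 5.47 and 11.3 with ST045849, with all groups overlapping. Nipbl, which loads cohesin on DNA, fell in bleomycin plus ST045849 against vehicle by 1.40 on the log2 scale (SE 0.39, adjusted p = 0.0439), from 4.65, 3.99 and 5.09 FPKM to 1.93, 0.583 and 1.00. None of 14 tested silencers of the clusters passed, and Trim28, the highest of them, had 50.3 to 71.3 FPKM in vehicle and 44.7 to 52.9 in bleomycin. Smchd1, a chromatin protein that represses the clusters, had 5.63, 7.86 and 8.63 FPKM in vehicle, 9.20, 4.55 and 8.35 in bleomycin, and 5.95, 2.21 and 4.69 with ST045849. The lowest library of Smchd1, Ctcf and Nipbl was ST045849 library 2 in each case. Other genes of these lists, such as Rad21 (13.8 FPKM) and Rest (1.56 FPKM), were also lowest there, whereas Trim28 was highest there (75.1 FPKM). That library also had the lowest length slope of the 9, -0.212. The share of all genes that were lowest in it was not counted.

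None of the 4 DNA demethylases and none of the 8 proteases and γ-secretase subunits that cleave protocadherins passed in any comparison. Among the demethylases Tet3 had the highest mean, with 3.98 to 11.2 FPKM in vehicle and 1.58 to 4.32 with ST045849. Psenen, a γ-secretase subunit, had 25.9 to 60.6 FPKM in vehicle and 41.6 to 115 with ST045849. Of 13 tested intracellular partners, Ptk2b (Pyk2, a focal adhesion kinase relative inhibited by gamma and alpha protocadherins in neurons) rose in bleomycin by 1.12 ± 0.18 (adjusted p = 0.00675) and with ST045849 against vehicle by 0.75 ± 0.18 (adjusted p = 0.0296). Its FPKM were 1.56, 1.37 and 1.28 in vehicle, 4.01, 4.76 and 3.96 in bleomycin, and 3.90, 2.97 and 2.36 with ST045849. Of 16 tested genes that flank the arrays, 1 was called higher, Cd14. It differed from vehicle by 0.84 ± 0.20 in bleomycin (limma, adjusted p = 0.0385) and by 0.99 ± 0.20 with ST045849 (adjusted p = 0.0146).

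Markers of other cell types that could carry protocadherin RNA were read the same way. Of 14 neuronal and glial markers 4 were tested: Stmn2, a tubulin-binding protein of growing axons, rose from 0.304, 0.242 and 0.208 FPKM in vehicle to 1.13, 4.07 and 3.24 in bleomycin (1.52 ± 0.31, adjusted p = 0.0212), and was 1.31, 3.22 and 2.72 with ST045849. Bleomycin was above vehicle without overlap in 5 of the 14, Stmn2, Gap43 (0.741 to 1.41 FPKM in vehicle, 1.61 to 2.59 in bleomycin; adjusted p = 0.196), Syt1 (0.0901 to 0.131 and 0.362 to 0.871), Rbfox3 (0 and 0.0182 to 0.112) and Elavl3 (0 and 0.0154 to 0.0279), and below it in 3, S100b, Mbp and Sox10. Among all genes at 0.1 FPKM in 3 libraries, 21.9% were above and 6.17% below in this way, and Rbfox3 and Elavl3 were very low. The synaptic marker Snap25 was listed at 0 in all 9 libraries. The list's sum, nearly all of it S100b, which cartilage also expresses, was 133 to 196 FPKM in vehicle, 82.9 to 108 in bleomycin and 128 to 223 with ST045849, and without S100b it was 4.5 to 5.96, 6.58 to 10.7 and 5.41 to 10.3. Of 13 tested fibroblast or synovial markers 4 were called higher in bleomycin, among them Cd34 (1.16 ± 0.17, limma, adjusted p = 0.00409) and Fap (1.92 ± 0.28, adjusted p = 0.00409). The sum of that list was 3230 to 4430 FPKM in vehicle, 4760 to 6680 in bleomycin and 3700 to 5210 with ST045849. Of 3 tested macrophage markers, Lyz2, Cd68 and Cd14, all 3 rose in bleomycin, with a list sum of 3.05 to 5.75 FPKM in vehicle, 10.9 to 12.6 in bleomycin and 11.9 to 18 with ST045849, while C1qb, C1qc and Tyrobp were listed at 0 throughout. No endothelial marker reached the filter, and their sums were 0.047 to 0.145 FPKM in vehicle, 0.505 to 0.579 in bleomycin and 0.495 to 0.795 with ST045849, both treated groups above vehicle. In 4 of these 8 markers (Vwf, Tek, Pecam1 and Kdr) bleomycin was above vehicle without overlap, with Vwf at most 0.263 FPKM, against the 21.9% of all genes at 0.1 FPKM in 3 libraries. Of 4 tested skeletal muscle markers Des rose with ST045849 against vehicle (1.08, adjusted p = 0.0432; list sums 7.84 to 17.7 FPKM). Of the 12 chondrocyte markers Prg4, the lubricin of the joint surface, rose in bleomycin by 1.88 ± 0.23 (adjusted p = 0.00263), and Acan, Matn3 and Col11a1, genes of the cartilage matrix, fell with ST045849 against vehicle by 1.66, 1.80 and 1.42 on the log2 scale (adjusted p = 0.00657, 0.00970 and 0.0388). The part of other cell types in the protocadherin values was not tested.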

How the data were processed

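RNA-seq of 9 libraries (3 groups of 3) was read from the deposited FPKM per gene, 1 file per library. The authors prepared poly(A)-selected stranded libraries (TruSeq Stranded mRNA), per the labels' protocols. Trimmomatic, STAR and GRCm38 are named, per the submitters' processing notes, and the counting tool, the annotation and the treatment of reads in shared exons are not stated in the labels or notes. The members and lists were chosen with earlier results of these data known.

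From FPKM, log2(FPKM + 1) was fitted with limma 3.58.1 (R 4.3.3; trended variances, all 9 libraries, no covariate) for the 12441 of 55450 genes that reached 1 FPKM in 3 or more libraries, with Benjamini-Hochberg adjustment over those genes and a call at adjusted p under 0.05. The limma script was tested on simulated data. Exon length and gene ends came from GENCODE vM21, in which all 58 members occur, 57 with the same identifier version (Pcdhgb8 differs). The annotation the authors used may differ from it. Approximate depth came from the spacing of low FPKM after multiplication by length; 26.6% to 30.8% of values fell on a whole step (tolerance 0.02 steps; chance 4%), too few to recover reads.

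Equal replicate numbers were checked as pairs. Deviations from group means correlated at 0.466, 0.481 and 0.500 between bleomycin and ST045849 libraries of equal number, so these were treated as paired, and at -0.0711, -0.026 and 0.546 (bleomycin) and -0.519, -0.279 and 0.424 (ST045849) with vehicle libraries, which were not. The pairing comes from the data and not from the labels.

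Named members were those that passed the filter, the 5 C-type genes, the highest of each cluster and those listed at 0 throughout; members outside this rule, and genes with shared bases or early ends, were named after their values were seen. For each list up to 2 risen and 2 fallen genes, or the highest, were named; Ctcf, Smchd1 and the markers Snap25, S100b, C1qb, C1qc and Tyrobp and further neuronal and endothelial markers were added for their roles or after their values were seen. Alternatives were 13 other settings, the omission of each of the 9 libraries, and 2 settings added after seeing the data.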

Additional observations from a re-analysis of the deposited data

How the results depend on the processing

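The count of members called in bleomycin against vehicle (1 of 15) was 0 with no filter on low values (55 members tested), 2 with a replicate block, 4 with the 2 groups alone, 3 with the 2 groups alone and a replicate block, 2 with the length trend removed and a replicate block, 2 with the 2 groups alone, the length trend removed and a replicate block, 4 with ST045849 library 1 as its group's lone sample, and 1 to 3 when single libraries were left out. For bleomycin plus ST045849 against bleomycin (0 of 15) it was 4 with the 2 groups alone and a replicate block, 2 with the length trend also removed, 1 with library 1 as the lone sample, and 0 to 9 when single libraries were left out (9 without ST045849 library 1, 1 without library 2). For bleomycin plus ST045849 against vehicle (1 of 15) it was 0 with no filter and 1 to 2 when single libraries were left out. The replicate block changed no other count of members called. The median change over all 58 members in bleomycin against vehicle (0.13) was 0.40 with a pseudocount of 0.1, 0.26 in TPM and -0.013 with the length trend removed, and 0.09 to 0.18 when single libraries were left out. For bleomycin plus ST045849 against bleomycin (-0.15) it was -0.50 with a pseudocount of 0.1, -0.39 in TPM and -0.018 with library 1 as the lone sample, and -0.19 to -0.10 when single libraries were left out. Against vehicle (-0.01) it was -0.15 with the length trend removed, and -0.07 to 0.00 when single libraries were left out. The gamma sum ratio of ST045849 to vehicle (1.41) was 1.76 with library 1 as the lone sample. The log2 change of Pcdhb22 in bleomycin against vehicle became -0.0476 after quantile normalization and -0.00997 with the length trend removed (in all 3 fits with it), and ran from -0.0853 to 0.39 when single libraries were left out. That of Pcdhgb5 became -0.0119 after quantile normalization. With library 1 as the lone ST045849 sample, the changes against bleomycin became 0.24 (Pcdhgb1), 0.0859 (Pcdhgb2), 0.0611 (Pcdhga6), 0.000805 (Pcdhga7) and 0.13 (Pcdhgb5). When single libraries were left out, those of Pcdhb22 ran from -0.0917 to 0.33 and those of Pcdhga9 from -2.44 to 0.0881. The causes were not tested. Of 762 values of log2 change under other settings (the 15 tested members in both bleomycin comparisons, Pcdhgb1 and Pcdhgb4 in ST045849 against vehicle), 712 kept their direction and their side of the threshold, 33 came to pass it, 2 ceased to and 15 reversed. The median of all tested genes moved from 0.10 to -0.05 (bleomycin against vehicle) and from 0.19 to -0.01 (ST045849 against vehicle) with median-of-ratios factors, and from 0.06 to -0.19 (ST045849 against bleomycin) in TPM. Depth limits the alpha genes most, which had at most 126 fragments per library in sum.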
